A study of Mus musculus with 22 samples.

Results

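The genes described here are 10 members of the oxygen-sensing pathway of the cell. Hif1a, Epas1, Hif3a and Arnt encode the subunits of the hypoxia-inducible factors (HIF). Egln1, Egln2, Egln3 and Hif1an encode the oxygen-dependent hydroxylases that control them, and the other members are Vhl and Cited2. The members were chosen by name, as the probes whose gene name in the scanner files is one of the 10. All 10 had a probe, 20 probes in all among 55681 biological probes, and they are 10 of 34741 genes with a probe. Of the 10, 7 passed the filter on dim probes and were tested among 16578 genes. The other 3, Egln1, Egln3 and Hif1an, were too dim to be tested and are described separately.

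The tissue was epididymal white adipose tissue, the fat pad beside the epididymis, of male mice of the inbred strain C57BL/6JOlaHsd that arrived at 10 weeks of age. Both groups were housed singly, ate a purified low-fat diet (10% of its energy as fat) for 3 weeks and then a high-fat one (40%) for 6 weeks, and were fasted before exposure. The normoxia group, 12 mice, stayed at 20.9% oxygen and the hypoxia group, 10 mice, was kept at 12% oxygen for 6 hours, both inside a calorimetry system. The protocol also mentions low-fat feeding without naming mice, so that diet was not modelled. RNA of each mouse, labelled with Cy5, was set on a 2-colour array beside Cy3-labelled RNA pooled from all samples, without a dye swap. A value is therefore the log2 ratio of a mouse to the pool, and a difference is hypoxia minus normoxia on that scale. The ratios of different genes do not rank their abundance.

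A HIF is a pair of an alpha subunit, HIF-1α (Hif1a), HIF-2α (Epas1) or HIF-3α (Hif3a), and the constant partner ARNT. When oxygen is present, the prolyl hydroxylases PHD1 (Egln2), PHD2 (Egln1) and PHD3 (Egln3) hydroxylate the alpha subunits, the VHL protein binds the hydroxylated form, and the ubiquitin ligase built on VHL marks it for destruction. The asparaginyl hydroxylase FIH (Hif1an) blocks the binding of the coactivators p300 and CBP, and CITED2 competes with HIF for the same coactivators. The oxygen-dependent step acts on proteins, which these arrays do not measure. Egln1, Egln3, Hif3a and Cited2 are known as transcripts that HIF itself can raise in some cells.

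Each value given for a member comes from the brightness of a 60-base probe. Probes are shown for Egln2 and Vhl, the members with the smallest p-values, and for Egln3, whose 2 probes differed in sign. Each line gives a 30-base stretch of the probe, 5′ to 3′, as the scanner files hold it, and capitals mark the hexamer AATAAA, the usual polyadenylation signal, where the probe contains it. Of all biological probes, 10.1% hold AATAAA, and of the 20 member probes 3 do. With ATTAAA counted too, the numbers are 13.7% and 4 of 20. Egln2 probe 2 and Egln3 probe 1, which stands for its gene, hold neither, and their first 30 bases are shown in lower case.
Egln2 probe 1: tgccagccaagaAATAAAagtttacctcag
Egln2 probe 2: tgtgtggtgtggagggcactaagtatcact
Vhl probe 1: cctttttagtacAATAAAcggtgctaattg
Egln3 probe 1: atcccagcatttattatgcactatgtttac
Egln3 probe 2: ggttcgcaaagaAATAAAgttggtgacaga
On the mm9 build used by the files, Egln2 probe 1 lies at chr7:27943678-27943737 and probe 2 at chr7:27944020-27944079, both on the minus strand. The Vhl probe, the only one for that gene, lies at chr6:113581566-113581625 on the plus strand, and the Egln3 probes at chr12:55280953-55281012 and chr12:55281252-55281311 on the minus strand. Which exon or untranslated region lies under a probe was not analysed here.

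HIF binds DNA at a short core, ACGTG or GCGTG. These letters were searched on both strands in the 250 bases upstream of the start sites of 9 of the 10 members (all but Epas1), taken from RefSeq on GRCm38.p6, and stand in capitals in the stretches of Egln2 and Vhl. Of 32851 such stretches over all genes, 16.6% held ACGTG, 28.2% held GCGTG and 38.6% held at least 1 of the pair. The E-box CACGTG holds ACGTG on both strands and so counts as a match on each, and 6.02% of the stretches held it.
Egln2, chr7:27166803-27167052, minus strand: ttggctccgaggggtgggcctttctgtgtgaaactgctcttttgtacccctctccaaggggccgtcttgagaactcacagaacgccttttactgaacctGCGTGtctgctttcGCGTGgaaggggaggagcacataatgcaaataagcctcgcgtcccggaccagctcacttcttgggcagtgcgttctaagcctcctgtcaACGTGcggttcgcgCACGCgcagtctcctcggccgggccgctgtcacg
Vhl, chr6:113623744-113623993, plus strand: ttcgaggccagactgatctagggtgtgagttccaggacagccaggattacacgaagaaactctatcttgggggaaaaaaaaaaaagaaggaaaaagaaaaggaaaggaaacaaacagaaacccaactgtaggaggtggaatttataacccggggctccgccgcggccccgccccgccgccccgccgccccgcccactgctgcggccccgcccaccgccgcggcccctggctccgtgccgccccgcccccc
The Egln2 stretch held 4 matches, between 30 and 151 bases from the start site, and 2.58% of all stretches held at least as many. The Vhl stretch and that of Hif1an held 0. The second annotated start site of Egln2 had 1 match, as had Arnt and Egln3. Hif3a, Egln1 and Cited2 had 2 each, and Hif1a had 3, with 1 E-box in each of Cited2 and Hif1a. A match says only that the letters are present.

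Across the series, 0 of 16578 genes passed an adjusted p of 0.05 in limma (smallest adjusted p 0.0691), which is 0% of the genes tested, and 879 had an unadjusted p below 0.05. For 0% of genes did the 2 groups not overlap. The median gene differed by 0.001 and the median standard error of a difference was 0.098. The arrays lie on 6 slides, of which 5 carry 2 mice of each group and the other (slide 2) carries 2 normoxia mice. Cy5 was well above background for 15.6% to 76.8% of spots, and the 4 arrays of slide 1, 2 of each group, were the dimmest at 15.6% to 18.9%. All 12 markers of adipocytes on the list used were above background on all 22 arrays.

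Among the 7 tested members, Egln2 was lower and Vhl higher in hypoxia by an unadjusted p below 0.05, and neither passed the threshold after adjustment over all genes. Hif3a and Hif1a had differences above 0, and Epas1, Arnt and Cited2 had differences below 0, each with a 95% confidence interval that covered 0. So 2 of 7 had an unadjusted p below 0.05, where 5.3% of all genes did (2.58% higher and 2.73% lower), and 0 of 7 passed the adjusted threshold, where 0% did. The adjusted p-values of the 7 ran from 0.746 to 0.996. Without slide 1 the count with an unadjusted p below 0.05 was again 2. The median difference of the 7 was -0.03, against 0.001 for all genes. All groups of mice overlapped for all 10 members. In bulk tissue, fewer cells of a type and less RNA per cell cannot be told apart.

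**Figure D1:**
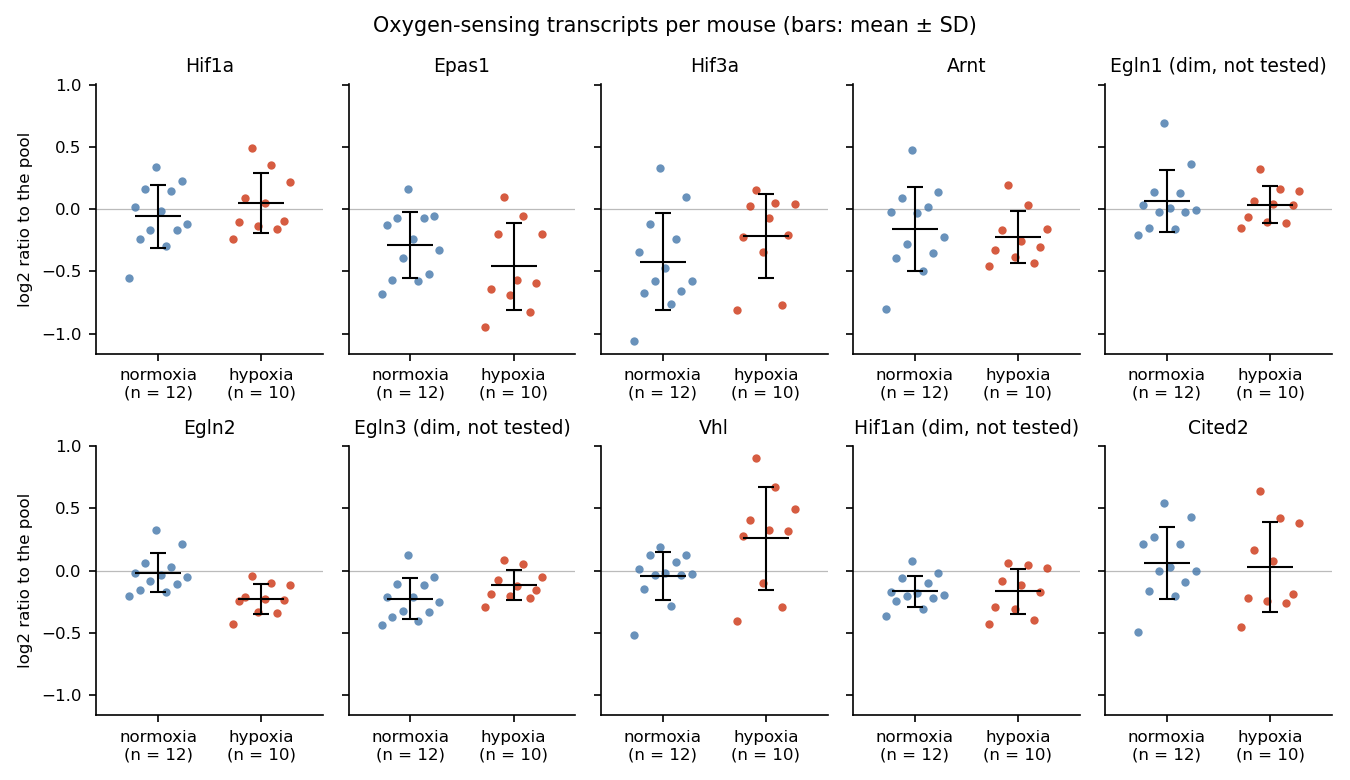
Log2 ratio to the pool (vertical axis) of each mouse for the 10 members, normoxia in blue (12 mice) and hypoxia in red (10 mice), with the mean and SD in black. The hypoxia mice of Egln2 lie between -0.43 and -0.04, all below the normoxia mean, and those of Vhl spread from -0.40 to 0.90, wider than normoxia.

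Egln2 encodes PHD1, a prolyl hydroxylase found mainly in the nucleus. Its log2 ratio ran from -0.20 to 0.33 in normoxia with a median of -0.05, and from -0.43 to -0.04 in hypoxia with a median of -0.23. All 10 hypoxia mice lay below the normoxia mean, and 7 of them lay below every normoxia mouse. The normoxia mean was -0.02 ± 0.16 (SD, n = 12) and the hypoxia mean -0.23 ± 0.12 (SD, n = 10), a difference of -0.21 ± 0.07 (SE, 95% interval -0.36 to -0.07), or 1.16-fold lower. Limma gave an unadjusted p of 0.00627 and an adjusted p of 0.746. A smaller or equal p was found for 0.832% of the genes tested. A two-sided permutation test of the 22 values gave p = 0.00133.

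The second Egln2 probe was also above background on all 22 arrays and gave a second reading of the transcript in the same mice. Its normoxia mean was 0.36 ± 0.26 (SD, n = 12) and its hypoxia mean 0.19 ± 0.17 (SD, n = 10). The difference was -0.17 ± 0.09 (SE), with an unadjusted p of 0.0703 from limma. Over the mice, with group means removed, both probes correlated at r = 0.43. The sign was therefore the same in both probes, and 1 of them passed an unadjusted p of 0.05.

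Vhl encodes the substrate-binding subunit of the ligase that destroys hydroxylated HIF. Its log2 ratio ran from -0.51 to 0.19 in normoxia with a median of -0.03, and from -0.40 to 0.90 in hypoxia with a median of 0.32. The hypoxia mice did not move as one: 7 of 10 lay above every normoxia mouse, and the other 3 (replicates 7, 9 and 10, at -0.29, -0.40 and -0.10) lay below the normoxia mean. The normoxia mean was -0.05 ± 0.19 (SD, n = 12) and the hypoxia mean 0.26 ± 0.41 (SD, n = 10). The difference was 0.31 ± 0.13 (SE, 95% interval 0.05 to 0.56), or 1.24-fold higher, with an unadjusted p of 0.0216 and an adjusted p of 0.865 in limma. The permutation test gave p = 0.0335. Leaving out hypoxia replicate 3, the highest mouse, lowered the difference to 0.24 with an unadjusted p of 0.0571. Only 1 probe stands for Vhl, so that no second reading exists on the array.

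Neither p stayed below 0.05 without the loess correction of the dyes or in the authors' own normalized values. When arrays were centred on their median in place of loess, the median gene moved to -0.21, and the differences were -0.47 for Egln2 (unadjusted p = 0.366) and 0.04 for Vhl (unadjusted p = 0.938). Relative to the median gene they were then -0.26 and 0.25. The deposited value table holds log2 levels, not ratios to the pool, so it is an unlike measure. Its differences were -0.31 (unadjusted p = 0.373) and 0.21 (unadjusted p = 0.529), with the same signs.

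Hif1a encodes the alpha subunit best known for driving glycolytic genes. Its ratio ran from -0.56 to 0.34 in normoxia (median -0.07) and from -0.24 to 0.49 in hypoxia (median -0.02). The groups covered each other, with 5 hypoxia mice on each side of the normoxia mean. The difference was 0.10 ± 0.10 (SE, 95% interval -0.11 to 0.32, unadjusted p = 0.327 in limma). It was -0.13 under median centring, which is 0.08 relative to the median gene. Without slide 1 it was 0.20. The second Hif1a probe was well above background on 1 of 22 arrays.

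Epas1 encodes HIF-2α, first described in endothelial cells. Its brightest probe ran from -0.68 to 0.16 in normoxia (median -0.28) and from -0.94 to 0.10 in hypoxia (median -0.58). Although 3 hypoxia mice lay below all normoxia mice, 4 lay above the normoxia mean. The difference was -0.17 ± 0.12 (SE, 95% interval -0.42 to 0.08, unadjusted p = 0.176 in limma). The other 2 probes, also tested, gave -0.10 ± 0.12 and -0.11 ± 0.09 (SE), so that all 3 were below 0. Without the dim slide 1 the difference of the brightest probe was -0.10.

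Hif3a encodes an alpha subunit with splice forms that restrain the other HIFs, and its transcript is known to be raised by HIF in some tissues. Its tested probe was well above background in Cy5 on 17 of 22 arrays. It ran from -1.06 to 0.33 in normoxia (median -0.53) and from -0.81 to 0.15 in hypoxia (median -0.14). Of the 10 hypoxia mice, 8 lay above the normoxia mean and 0 above the highest normoxia mouse. The difference was 0.21 ± 0.14 (SE, 95% interval -0.09 to 0.50, unadjusted p = 0.165 in limma), and it was -0.02 under median centring, or 0.19 relative to the median gene. With the scanner software's deposited log ratio it was 0.47. The other 2 Hif3a probes were well above background on 0 and 4 arrays and gave -0.08 and -0.03. The 3 probes lie at chr7:17616855-17616914, chr7:17620811-17620870 and chr7:17636526-17636585 on mm9, apart along the gene. Which splice forms they read was not tested.

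Arnt, the constant partner, ran from -0.80 to 0.48 in normoxia (median -0.13) and from -0.46 to 0.20 in hypoxia (median -0.28). The hypoxia mice lay inside the normoxia range, 8 of 10 below its mean. The difference was -0.07 ± 0.12 (SE, 95% interval -0.31 to 0.17, unadjusted p = 0.551 in limma), and the second tested probe gave -0.06 ± 0.08 (SE). These 2 Arnt probes did not follow each other over the mice (r = -0.14). The first was well above background in Cy5 on 20 of 22 arrays and the second on 12, so many values behind this r were dim. The sign of the first probe's difference changed when slide was added as a fixed block (0.0063, against -0.065 as a random block). It also changed with the scanner software's deposited log ratio (0.044).

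Cited2 encodes the competitor for p300 and CBP. Its ratio ran from -0.49 to 0.54 in normoxia (median 0.01) and from -0.45 to 0.64 in hypoxia (median -0.06). The groups overlapped almost fully, with 5 hypoxia mice above and 5 below the normoxia mean. The difference was -0.03 ± 0.13 (SE, 95% interval -0.30 to 0.24, unadjusted p = 0.815 in limma), and the second probe gave 0.05 ± 0.10 (SE).

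**Figure D2:**
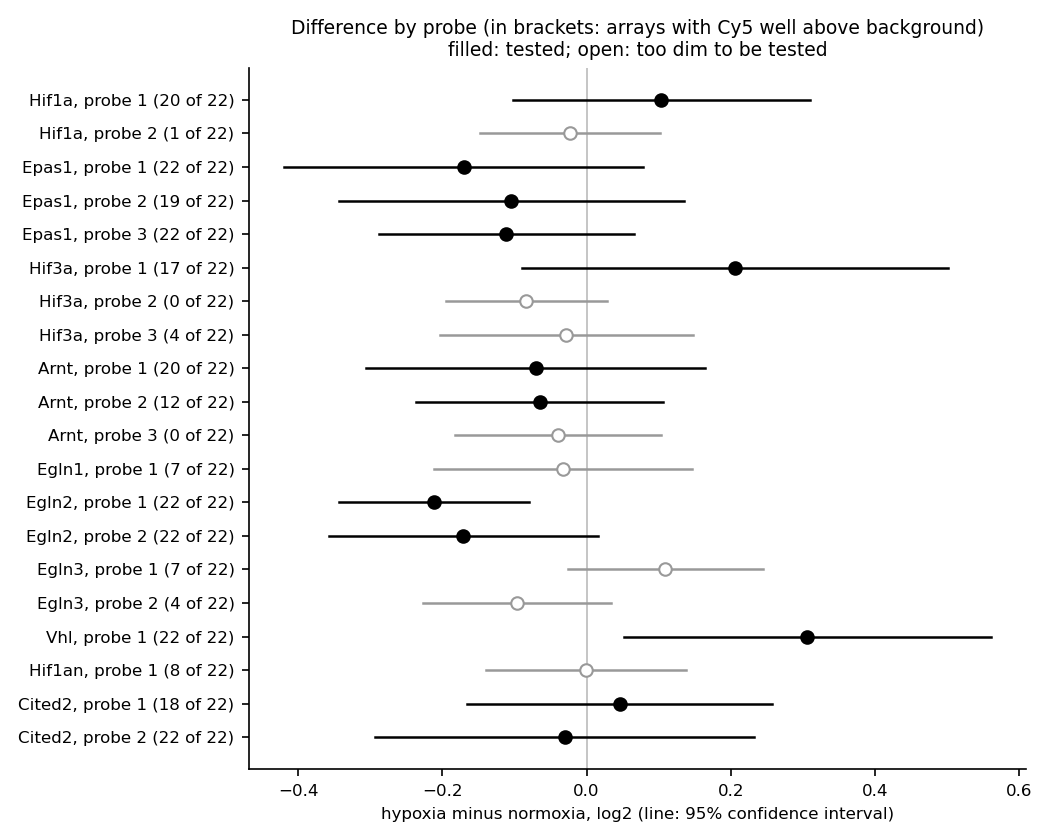
Difference of each of the 20 member probes, hypoxia minus normoxia in log2 (horizontal axis), with its 95% confidence interval from the fit over all probes. Filled points are the 12 tested probes and open points those too dim to be tested. The interval excludes 0 for Egln2 probe 1 (-0.34 to -0.08) and for Vhl (0.05 to 0.56), and covers it for the other probes.

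The 3 members that were not tested had Cy5 well above background on 7 (Egln1), 7 (Egln3, brighter probe) and 8 (Hif1an) of 22 arrays. In the Cy3 channel of the pool the same probes were above background on 21, 22 and 22 arrays. Their differences come from the fit of all 34741 genes without a filter.

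Egln3 encodes PHD3, one of the transcripts most often raised by HIF. Its brighter probe ran from -0.43 to 0.12 in normoxia (median -0.23) and from -0.29 to 0.09 in hypoxia (median -0.14). Of the 10 hypoxia mice, 9 lay above the normoxia mean. The difference was 0.11 ± 0.07 (SE, 95% interval -0.03 to 0.25, unadjusted p = 0.114 in limma), but the second probe, above background on 4 arrays, gave -0.10 ± 0.06 (SE). The probes correlated at r = -0.17 over the mice, so that a direction for Egln3 was not settled.

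Egln1 encodes PHD2, the main hydroxylase of HIF-1α. Its ratio ran from -0.21 to 0.69 in normoxia (median 0.001) and from -0.15 to 0.32 in hypoxia (median 0.04), with a difference of -0.03 ± 0.09 (SE, 95% interval -0.21 to 0.15). Hif1an ran from -0.36 to 0.08 in normoxia (median -0.19) and from -0.43 to 0.06 in hypoxia (median -0.14), with a difference of -0.001 ± 0.07 (SE, 95% interval -0.14 to 0.14). Both sets of hypoxia mice lay on either side of the normoxia median. Of the hydroxylases, then, Egln2 alone was bright enough to be tested.

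**Figure D3:**
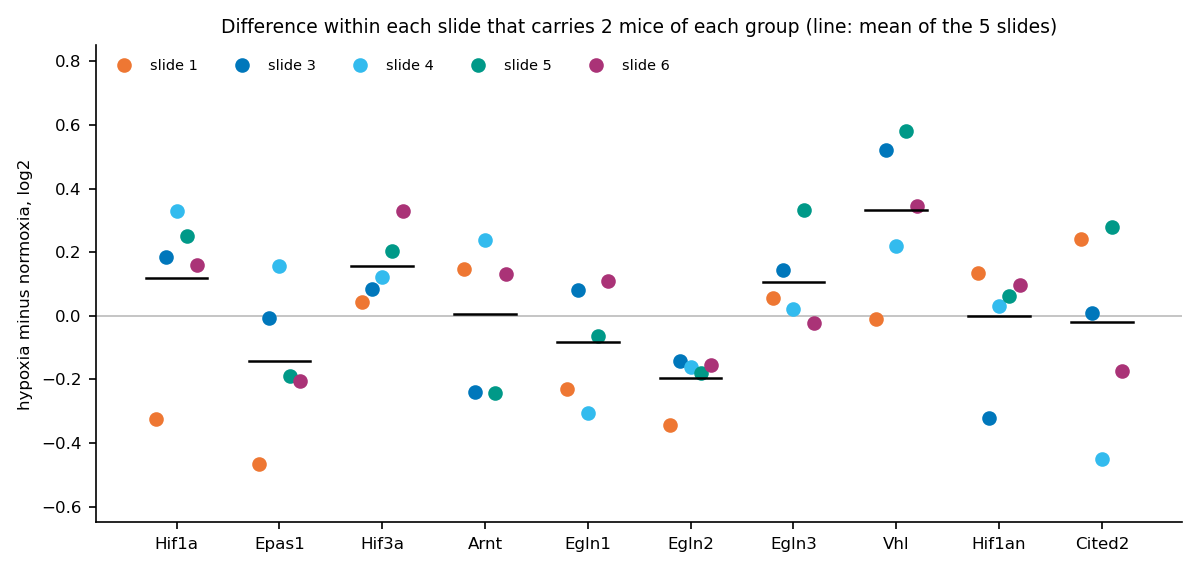
Difference within each of the 5 slides that carry 2 normoxia and 2 hypoxia mice (points, coloured by slide) and their mean (line), in log2, for the 10 members. All 5 Egln2 points lie below 0, between -0.34 and -0.14, and 4 of 5 Vhl points lie above 0, the exception being slide 1 at -0.01.

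Because 2 mice of each group share a slide, each slide gives a comparison of its own. Egln2 was lower in hypoxia on 5 of 5 slides, with a difference of -0.34 on slide 1 and of -0.18 to -0.14 on slides 3 to 6. Permuting the labels within slides gave an exact two-sided p of 0.00309, where 7776 arrangements allow no p below 0.000257. Vhl was higher on 4 of 5 slides, by 0.22 to 0.58, with -0.01 on slide 1 (exact p = 0.0455 within slides). Hif3a was above 0 on 5 of 5 slides, by 0.04 to 0.33 (exact p = 0.347). The lowest of these, 0.04 on slide 1, came from arrays on which its probe was not well above background in Cy5. Epas1 was below 0 on 4 of 5 and Hif1a above 0 on 4 of 5, and slide 1 held the lowest value of each, -0.47 and -0.32. Cited2 ran from -0.45 on slide 4 to 0.28 on slide 5. These are 10 comparisons, 1 for each member, and their p-values are unadjusted.

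Genes that work with the members were read from lists. Among 11 partners of VHL and other ubiquitin enzymes acting on HIF or on the hydroxylases, 10 were tested, 7 were above 0 and 3 below, and 0 had an unadjusted p below 0.05 in limma. The 3 with the smallest p were Usp20, a deubiquitinase (-0.10, unadjusted p = 0.156), Cops5, a subunit of the COP9 signalosome (-0.13, p = 0.325), and Rbx1, the RING subunit of the ligase (0.11, p = 0.353). The scaffold Cul2 differed by 0.05 and the adaptors Elob and Eloc by 0.04 and 0.11. The median of the list was 0.05, against 0.001 for all genes. The 10 differences ran from -0.13 to 0.11. Under median centring 0 of 10 were above 0 and 6 of 10 above the median gene.

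Among 23 coactivators, corepressors, chaperones and other partners, 17 were tested, 12 were above 0 and 5 below, with a median of 0.07 and 0 at an unadjusted p below 0.05. Under median centring 0 of 17 were above 0 and 11 of 17 above the median gene. The coactivators Ep300 and Crebbp differed by -0.04 and -0.01. The smallest p-values belonged to the coactivator Ncoa2 (0.12, p = 0.192), the aryl hydrocarbon receptor Ahr (0.13, p = 0.223) and the chaperone Hsp90aa1 (0.18, p = 0.227).

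Among 20 other oxygen-using dioxygenases, 19 were tested, with 13 above 0, 6 below and a median of 0.01. Tet3, which oxidises methylcytosine, differed by -0.22 with an unadjusted p of 0.0218 (adjusted p 0.865, limma). It was 1 of 19, or 5.26%, where 5.3% of all genes had such a p. Under median centring 1 of 19 was above 0 and 13 of 19 above the median gene. Kdm3a, a histone demethylase known as a HIF target, differed by 0.03.

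Genes that HIF is known to activate were read as a further list. The activity of HIF was not measured, and its part in their differences was not tested. Of 36 listed genes outside the 10 members, 33 were tested, 25 were above 0 and 8 below, and the median was 0.08. An unadjusted p below 0.05 was found for 7, all higher, which is 21.2% against 2.58% of all genes that were higher by that measure, and 0 passed the adjusted threshold. They were Ankrd37 (0.59), Ddit4 (0.45), which restrains mTORC1, the lactate carrier Slc16a3 (0.45), the lipid droplet protein Hilpda (0.43), Adm (0.29), which encodes the vasodilator adrenomedullin, Pgk1 (0.27) and Hmox1 (0.22). The Pgk1 gene lies on chromosome X but its probe is listed on chromosome 3, so that what it reads is uncertain. The same holds for Gapdh (0.05), counted above 0, whose gene lies on chromosome 6 and whose probe is listed on chromosome 7. Vegfa (-0.06), Slc2a1 (0.18) and Ldha (0.07) had unadjusted p-values of 0.519, 0.235 and 0.573. Without slide 1 the count of 7 became 6, and in the deposited value table it became 2, with 18 of 33 above 0. Under median centring the count was 0 and 7 of 33 were above 0, or 20 of 33 above the median gene. The list was chosen with earlier results known, and its count is a description.

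**Figure D4:**
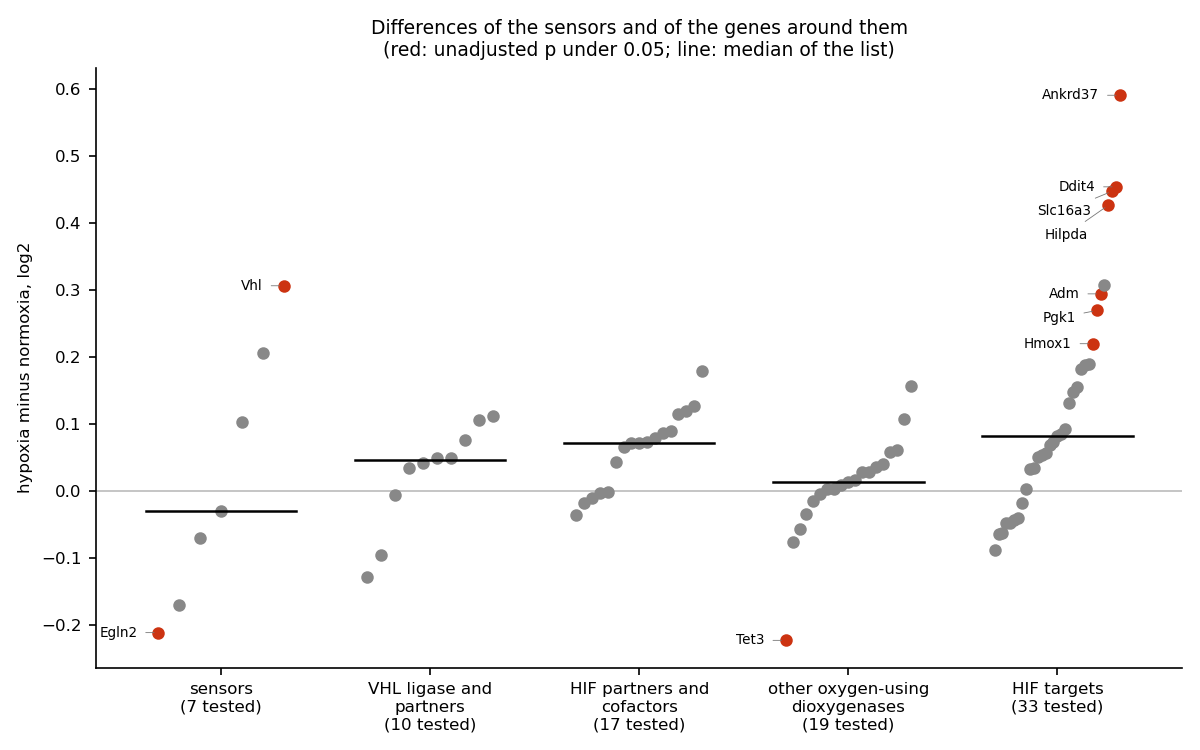
Difference of each tested gene, hypoxia minus normoxia in log2 (vertical axis), for the 7 tested members (labelled sensors) and 4 lists of genes around them. Genes stand in order of size within each list. Red points have an unadjusted p below 0.05 and lines mark list medians. Of the 33 HIF targets 7 are red and all lie above 0, while Egln2 and Vhl are red on opposite sides of 0.

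Several marker lists of cell types leaned one way between the groups as well. Over all genes 50.4% were above 0, and 2.58% were higher at an unadjusted p below 0.05. All 8 tested smooth muscle and pericyte markers were above 0, with 3 at an unadjusted p below 0.05. For some lists a score per mouse is given, whose 0 is not that of the pool. For these markers the score ran from -0.45 to 0.32 in normoxia and from -0.19 to 0.48 in hypoxia. All 4 tested red blood cell transcripts were above 0, 3 of them at that p. Their score ran from -0.78 to 0.55 in normoxia and from -0.38 to 1.00 in hypoxia. Mesothelial markers were above 0 for 8 of 8, 1 of them at that p, and macrophage markers for 10 of 12, with 2 higher at that p. Adipocyte markers were above 0 for 10 of 12, but for 7 of 12 without slide 1 and for 4 of 12 in the deposited value table. Their score ran from -0.36 to 0.63 in normoxia and from -0.22 to 0.47 in hypoxia. Endothelial markers were above 0 for 8 of 12, with 1 higher and 1 lower at an unadjusted p below 0.05. Progenitor and lymphocyte markers were above 0 for 4 of 8 each. Of sperm transcripts, 4 were tested and all 4 were below 0, while the listed epididymis genes were too dim to be tested. Under median centring fewer markers were above 0, but 8 of 8 smooth muscle, 4 of 4 red blood cell and 8 of 8 mesothelial markers were above the median gene, as were 4 of 12 adipocyte and 6 of 12 endothelial markers. The part of these cell types in the differences of Egln2, Vhl and the HIF targets was not tested.

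Members were also compared with each other over the 22 mice after the group means were removed. Of 21 pairs, 15 correlated above 0 and 0 passed an adjusted p of 0.05 by permutation. The highest was Epas1 with Arnt, partners in HIF-2 (Pearson r = 0.50, p = 0.0133, adjusted p = 0.28, and Spearman rho = 0.52, p = 0.0131, adjusted p = 0.137). It stayed at 0.50 without the 2 mice farthest from the Epas1 median, and was 0.32 with slide means removed and 0.57 without slide 1. Epas1 with Vhl followed (r = 0.46, adjusted p = 0.361, rho = 0.35, adjusted p = 0.497), then Hif3a with Egln2 (r = 0.44, adjusted p = 0.361, rho = 0.54, adjusted p = 0.137). Egln2 with Vhl reached 0.34 (adjusted p = 0.415, rho = 0.38, adjusted p = 0.423), above 0 within the mice although their differences between the groups had opposite signs. Cited2 correlated below 0 with 5 of the other 6, from -0.32 to -0.10. With slide means removed it was below 0 with all 6, and the strongest pairs were then Epas1 with Cited2 (r = -0.61, permutation p = 0.00493, adjusted p = 0.104) and Hif3a with Egln2 (r = 0.55, permutation p = 0.00987, adjusted p = 0.104).

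**Figure D5:**
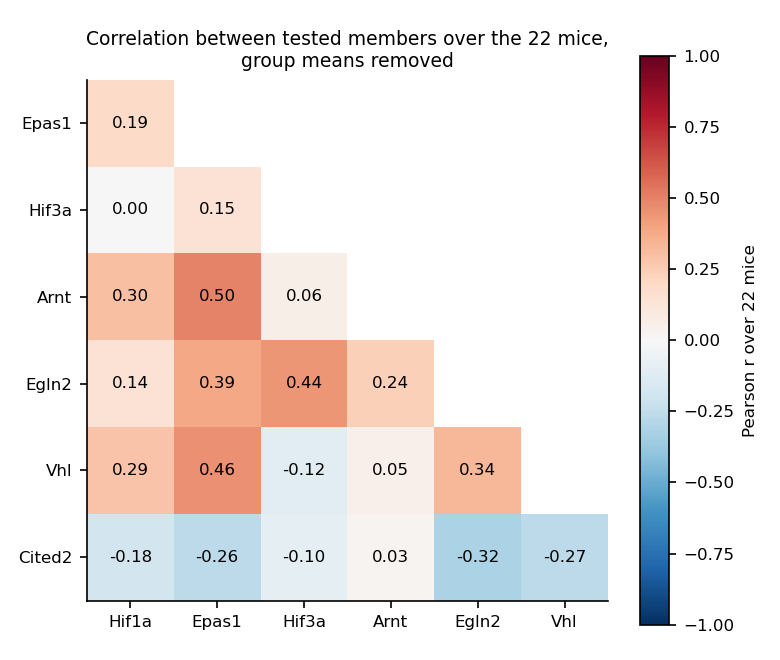
Pearson correlation of each pair of tested members over the 22 mice after removing group means (colour and number). Values run from -0.32 for Egln2 with Cited2 to 0.50 for Epas1 with Arnt, and none of the 21 pairs passed an adjusted p of 0.05.

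The genes whose ratios followed a member most closely over the 22 mice are given as a description, since they are the top 3 of 16578. Egln2 was followed by Arid3a, Sat2 and Gm8618 (r = 0.83 each), of which Gm8618 differed between the groups by -0.21 as Egln2 did, while Sat2 differed by -0.02. Vhl was followed by Gcnt2 (0.79), Epn2 (0.78) and Rbm28 (0.77). Arnt had the closest followers, Lyrm4 (0.93), Cdkn2aipnl (0.92) and Rbbp9 (0.89), and Epas1 was followed by Syap1 (0.89), Apip (0.85) and Chchd3 (0.84). For Hif1a they included Yod1 and Slc25a30 (r = 0.73 each), for Hif3a Fzd7 (0.78), Ripk4 (0.73) and Boc (0.71), and for Cited2 the mitochondrial gene ND1 (0.85), Ppp2r2a (0.84) and Pip4k2c (0.83). Over all genes, the 5th and the 95th percentile of r were -0.56 and 0.51 for Egln2 and -0.43 and 0.36 for Vhl. For Arnt they were -0.50 and 0.63, the highest 95th percentile of the tested members, so its correlations ran high in general. All these values share arrays and slides.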

How the data were processed

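Per the file headers, the scanner files of 22 arrays hold intensity values as scanned, from Agilent Feature Extraction 10.7.3.1 (also named in the submitters' processing notes). Their deposited log10 ratio already carries that software's background and dye correction. A deposited value table holds log2 levels, not ratios to the pool, for 33845 spots, each array with a median of 6.30. Its normalization by the authors is not given in the sources, and 17 of the 20 member probes are in it. From mean signals, normexp background correction (offset 50) and loess within arrays were run with limma 3.58.1 (R 4.3.3). Spots with outlier flags were left out, which touched no member. Probes with Cy5 well above background on at least 10 arrays were tested, and the brightest stood for its gene. Groups were compared with lmFit and eBayes, with Benjamini-Hochberg adjustment over 16578 genes and a threshold of 0.05. Permutation tests were two-sided, with 100000 resamples or exact within slides. The fit was checked on simulated data. Names were updated through RefSeq (GRCm38.p6). Members, lists, the rule for named genes (all members, list genes with an unadjusted p below 0.05 or else the 3 smallest, and the 3 most alike genes) and tests were chosen with earlier results of these data known. The text adds a few genes outside that rule (Cul2, Elob, Eloc, Ep300, Crebbp, Kdm3a, Vegfa, Slc2a1, Ldha), chosen for their roles after their values were seen, and a few listed genes are not reported here and were left out of list counts. The submitters describe the samples as biological replicates. The number of arrays limits the precision.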

Additional observations from a re-analysis of the deposited data

Results flagged for a closer look

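Among 24 sets of values searched (the members and the named genes, in the hypoxia group), 1 was set apart from its group by Dixon's criterion, where about 1 in 20, or 1.2, is what chance gives. The log2 ratio of Ankrd37, a HIF target, was 0.92 in hypoxia replicate 9, with the nearest other hypoxia mouse at 0.25 and the lowest at -0.45. None of the members' hypoxia values was set apart in this way. The normoxia group of 12 mice was too large for the criterion and was not searched.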

How the results depend on the processing

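No member passed the adjusted threshold under any alternative tried. Egln2 stayed below 0 and Vhl above 0 in all 14 other settings and in all 22 fits without 1 mouse (-0.23 to -0.18 for Egln2, 0.24 to 0.38 for Vhl). Members with an unadjusted p below 0.05 numbered 2 in the settings tried except median centring (0), the value table (0) and the replicate block (1), and 1 to 2 without 1 mouse. Genes past the adjusted threshold, 0 as reported, numbered 1 with the deposited log ratio, 1 after scaling between arrays, 2 with Cy5 above background on all arrays, 2 with slide as a fixed block, 1 with slide as a random block, 4 with array weights, 2 without slide 1, and 0 to 3 without 1 mouse. Genes with an unadjusted p below 0.05, 879 of 16578 as reported, numbered 72 of 16578 under median centring and 158 of 16564 in the value table. They were 433 of 6458 with Cy5 above background on all arrays, 1593 of 34741 without a filter and 1567 of 16578 with array weights. Without 1 mouse they numbered 671 to 1043, and the number of genes tested also varied. Median centring moved the median gene by -0.21 and left 2.78% of the genes with an unadjusted p below 0.05 higher in hypoxia, against 48.6% as reported and 38.1% with array weights.

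Most same-numbered mice of both groups did not deviate together (correlations of -0.47 to 0.25, above 0.1 for replicates 5 and 8). Arrays of a slide can also deviate together, so these correlations cannot decide whether the numbers pair mice. With the replicate block over replicates 1 to 10, 547 of 15716 genes had an unadjusted p below 0.05, and 1 member did. Egln2 then differed by -0.23 and Vhl by 0.26 (unadjusted p = 0.0754 in limma), Hif1an by 0.024 and Cited2 by 0.0053.

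Small differences changed sign, and the cause was not tested. Arnt was 0.044 with the deposited log ratio, 0.0063 with slide as a fixed block and 0.0063 without slide 2. Cited2 was 0.0049 with the deposited log ratio and 0.0076 as the mean of its probes. Hif1an was 0.0058 without background subtraction and 0.046 in the value table. Egln1 was 0.093 in the value table and 0.015 without slide 1. Under median centring Hif1a was -0.13, Hif3a -0.023 and Egln3 -0.071. Without 1 mouse, Egln1 ran from -0.064 to 0.024, Hif1an from -0.027 to 0.028 and Cited2 from -0.098 to 0.023. With Cy5 required above background on all arrays, Hif1a, Hif3a and Arnt gave no value. The correlations between members gave 0 pairs past the threshold also with slide means removed and without slide 1.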
